A study of Mus musculus with 12 samples.

Results

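The nuclear-encoded respiratory chain was followed through RNA of the mouse corpus callosum, a white matter tract rich in myelin that connects both sides of the cortex. The genes were taken by symbol, as those that start with Ndufa, Ndufb, Ndufc, Ndufs, Ndufv, Uqcr, Cox4 to Cox8 or Atp5, plus Sdha, Sdhb, Sdhc and Sdhd, and that reached 1 FPKM (fragments mapped to a gene, scaled by its transcript length and by the size of the library) in at least 3 of 12 libraries. This gave 89 genes of the 15584 in the deposited table, and all 89 passed the filter on low values, as did 13759 genes in all. Of the 89, 79 were classed as subunits, with 38 in complex I, 4 in complex II, 8 in complex III, 14 in complex IV and 15 in complex V. The other 10 were caught by their names: the complex I assembly factors Ndufaf1 to Ndufaf7, together with Atp5s, Atp5sl and Cox7a2l. Ndufa4, known as a subunit of complex IV, and its paralog Ndufa4l2 were counted in complex I by name only.

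The 4 groups held 3 libraries each. They were conditional knockout mice, whose microglia had lost the gene for the aryl hydrocarbon receptor, after cuprizone (AHR CKO CPZ), the same knockout without cuprizone (AHR CKO Ctrl), wild-type mice after cuprizone (WT CPZ) and wild-type mice without it (WT Ctrl). Cuprizone is a copper chelator that kills oligodendrocytes and strips the corpus callosum of myelin. The sources used here do not give the Cre line, the strain, sex or age of the mice, nor how much cuprizone was given or for how long. Nor do they state that each library is its own animal, so the p-values measure the spread between these libraries, which may be technical.

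The respiratory chain sits in the inner mitochondrial membrane. Complexes I and II take electrons from NADH and from succinate, complex III passes them from coenzyme Q to cytochrome c, complex IV hands them to oxygen, and complex V turns the resulting proton gradient into ATP. Most subunits are encoded in the nucleus and a few in mitochondrial DNA. In white matter, oxidative metabolism serves axons, astrocytes and the lipid synthesis of myelin-forming cells, and copper is a cofactor of complex IV. The 13 mitochondrially encoded subunits were not analysed here. Many of the small nuclear-encoded subunits have processed pseudogenes in the mouse genome, and the sources do not say how reads shared with such copies were assigned.

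Values per library summed to between 447156 and 519470 FPKM, and the libraries correlated with r of 0.972 to 0.993 within groups and 0.932 to 0.983 between groups. The deposited values hold no counts, so the depth behind them is unknown. Ahr itself had 1.48, 1.76 and 2.57 FPKM in AHR CKO CPZ, 1.79, 1.41 and 2.07 FPKM in AHR CKO Ctrl, 1.73, 1.85 and 2.01 FPKM in WT CPZ and 2.22, 1.48 and 1.65 FPKM in WT Ctrl. The groups overlapped. Since the table gives 1 value per gene in tissue with many other cells, Ahr does not check the genotype labels. Library AHR CKO CPZ 1 stood apart for the respiratory chain: it was the highest of all 12 libraries for 78 of the 89 genes, and its values had a median ratio of 1.34 to the mean of AHR CKO CPZ 2 and 3. WT Ctrl 1 was the lowest of the 12 for 38 genes. Counts of calls and median changes that rest on these libraries are given with and without them. Most results of single genes are given with them only.

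Promoter windows of 4 genes are shown because they stand for the different behaviours described below: Ndufb6 and Sdhb, which differed between the genotypes, Cox6a1, the most abundant, and Sdha, which did not pass any test. Each window runs from 250 bases before to 50 after the start of the gene in RefSeq (GRCm38.p6), is written 5′ to 3′ along the gene's strand, and has in capitals the matches to 3 motifs of factors known to act on respiratory genes. The motifs searched on both strands were GCGCATGC for NRF1, CCGGAAG for GABP and AAGATGGC for YY1.

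Ndufb6, chr4:40279372-40279671, minus strand: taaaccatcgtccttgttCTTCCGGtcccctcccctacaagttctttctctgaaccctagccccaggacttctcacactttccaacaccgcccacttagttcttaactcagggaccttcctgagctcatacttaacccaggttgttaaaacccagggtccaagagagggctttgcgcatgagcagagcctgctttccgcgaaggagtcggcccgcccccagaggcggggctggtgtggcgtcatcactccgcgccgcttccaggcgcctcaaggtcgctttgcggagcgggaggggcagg
Sdhb, chr4:140961021-140961320, plus strand: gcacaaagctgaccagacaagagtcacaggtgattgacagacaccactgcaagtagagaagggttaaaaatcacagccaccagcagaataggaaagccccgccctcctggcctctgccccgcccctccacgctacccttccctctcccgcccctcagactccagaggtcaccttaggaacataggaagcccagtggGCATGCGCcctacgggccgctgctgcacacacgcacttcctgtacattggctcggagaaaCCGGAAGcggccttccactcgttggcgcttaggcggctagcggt
Cox6a1, chr5:115348909-115349208, minus strand: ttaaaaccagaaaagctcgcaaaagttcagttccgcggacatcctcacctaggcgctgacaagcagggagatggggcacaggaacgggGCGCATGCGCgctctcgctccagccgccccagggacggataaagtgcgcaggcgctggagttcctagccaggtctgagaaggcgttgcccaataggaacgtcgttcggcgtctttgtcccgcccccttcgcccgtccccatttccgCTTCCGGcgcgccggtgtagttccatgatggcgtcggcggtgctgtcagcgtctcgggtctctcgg
Sdha, chr13:74350191-74350490, minus strand: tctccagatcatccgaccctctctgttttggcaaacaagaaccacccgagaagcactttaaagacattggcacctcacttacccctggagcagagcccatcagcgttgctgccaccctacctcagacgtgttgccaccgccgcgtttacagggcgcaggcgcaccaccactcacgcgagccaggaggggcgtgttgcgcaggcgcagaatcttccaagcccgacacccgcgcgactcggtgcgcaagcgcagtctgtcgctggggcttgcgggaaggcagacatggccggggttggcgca

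The Ndufb6 window held 1 GABP match and the Sdhb window 1 NRF1 and 1 GABP match. Cox6a1 had 2 NRF1 matches that overlap each other, 1 on each strand, and 1 GABP match, whereas the Sdha window held none of the 3. Windows were found for 71 of the 89 genes. Of their 76 windows, 12 (15.8%) held the NRF1 motif, against 2.71% of all 32851 windows in the RefSeq table. GABP was matched in 17 (22.4%), against 8.86% of all windows, and YY1 in 9 (11.8%), against 2.75%. A match is a run of letters and not evidence of binding.

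The 89 genes spanned a wide range of abundance. Their means over the 12 libraries had a median of 155 FPKM; 64 genes were above 100 FPKM and 11 were below 20 FPKM. Only 3 exceeded 1000 FPKM, and all 3 were ubiquitous forms of complex IV subunits: Cox6a1 (1838 FPKM), Cox8a (1275 FPKM) and Cox4i1 (1174 FPKM). Restricted isoforms had low means over the 12 libraries: Cox4i2, an isoform linked to low oxygen, had 3.88 FPKM, and Cox6a2, the muscle form of subunit 6a, 15.5 FPKM. For subunit 7a, the heart and skeletal muscle form Cox7a1 had a mean of 8.29 FPKM and the ubiquitous Cox7a2 a mean of 166.5 FPKM. Together the 89 genes made up 5.01% ± 0.818 of all FPKM in AHR CKO CPZ and 4.95% ± 0.265 in AHR CKO Ctrl, against 4.19% ± 0.181 in WT CPZ and 3.92% ± 0.156 in WT Ctrl (SD, n = 3 each).

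Per library, the mean log2(FPKM + 1) over the 89 genes was 7.51, 7.12 and 7.03 in AHR CKO CPZ and 7.03, 7.18 and 7.27 in AHR CKO Ctrl. It was 6.78, 6.90 and 6.85 in WT CPZ and 6.72, 6.83 and 6.84 in WT Ctrl. All 6 AHR CKO libraries lay above all 6 WT libraries, and cuprizone did not separate the libraries within either genotype. The same held in complex I, II, III, IV and V taken one by one, where the lowest AHR CKO library stood above the highest WT library, although in complex II by very little: 6.79 in AHR CKO CPZ 3 against 6.78 in WT Ctrl 3.

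**Figure D1:**
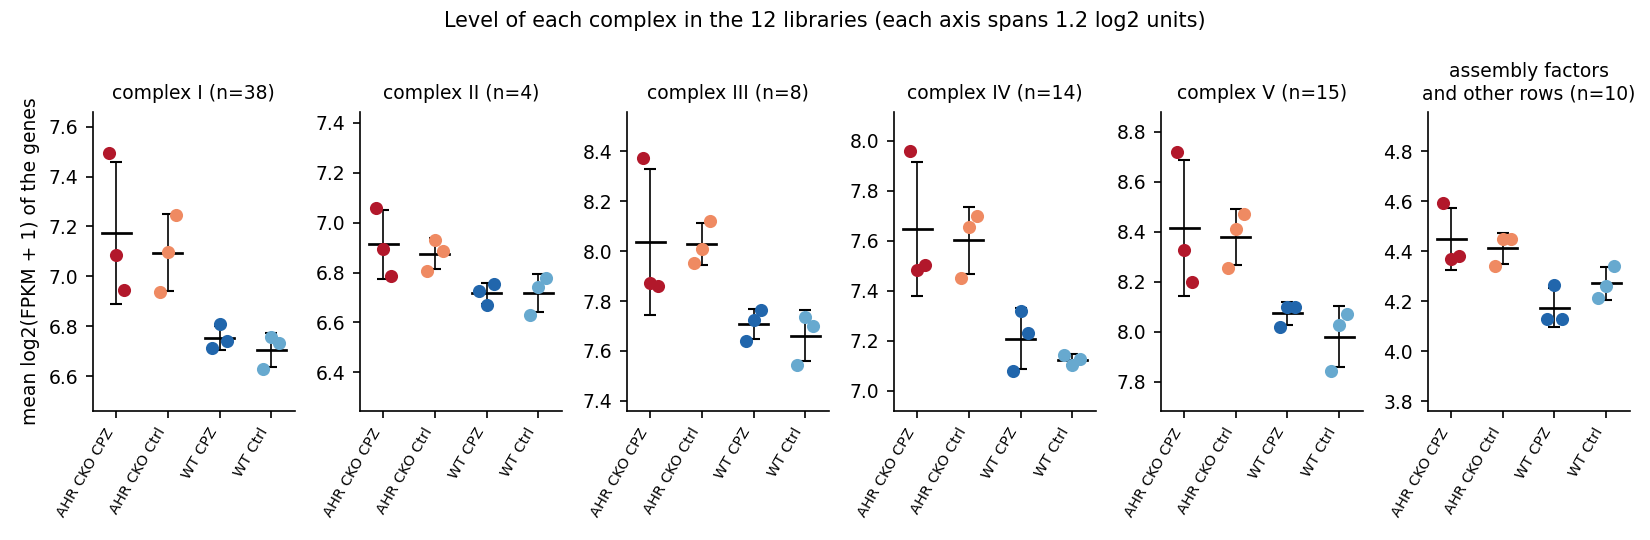
Mean log2(FPKM + 1) of the genes of each complex in the 12 libraries, 1 point per library, with bars for the group mean and SD (n = 3); each vertical axis spans the same 1.2 log2 units. The AHR CKO points lie above the WT points in complexes I to V, and AHR CKO CPZ 1 is the highest point in each panel.

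Under cuprizone, 34 of the 89 genes were higher in AHR CKO than in WT at an adjusted p under 0.05 (limma on log2(FPKM + 1), Benjamini-Hochberg over all 13759 genes), and none was lower. Across all tested genes 9.14% were called higher and 10.8% lower (1257 and 1490 genes, but 626 and 2332 after rescaling to a common total, where 18 of the 89 were higher and 0 lower). Among short transcripts the share called higher was larger, as given below. At an unadjusted p under 0.05, 67 of the 89 were higher and 0 lower. The log2 change was positive in 85 of the 89, with a median of 0.40, against a median of 0.002 over all tested genes. In 60 of the 89 (67.4%) every AHR CKO CPZ library was above every WT CPZ library, as in 18.9% of all tested genes, and Ndufaf4 was the 1 gene with every AHR CKO CPZ library below. In this bulk tissue, more cells rich in these transcripts and more RNA per cell cannot be told apart.

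The calls depended on single libraries, in the respiratory genes and in all genes. Without AHR CKO CPZ 1 the genes called higher numbered 2, Ndufa4l2 and Uqcr10, with the median log2 change at 0.24; without AHR CKO CPZ 2 they numbered 13 and without AHR CKO CPZ 3 they numbered 53. Leaving out WT CPZ 1 left 4 calls and leaving out WT CPZ 3 left 6. All tested genes lost calls in the same way: without AHR CKO CPZ 1 there were 323 higher and 454 lower, without AHR CKO CPZ 2 582 and 892, without WT CPZ 1 463 and 685 and without WT CPZ 3 500 and 701, whereas without AHR CKO CPZ 3 there were 1472 and 1833. AHR CKO CPZ 1 was the highest library of its group for 88 of the 89 genes. The count of genes with AHR CKO CPZ 2 and 3 above all 3 WT CPZ libraries was again 60. Because AHR CKO CPZ 1 was nearly always the highest, this count had to repeat the earlier one and adds no support. Its share over all tested genes was not computed. Without AHR CKO CPZ 1, 82 of the 89 changes stayed positive.

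Complex I, the NADH dehydrogenase, contributed 19 of the 34 calls from its 38 genes, and 37 of the 38 changes were positive (median log2 change 0.46). Among the 7 core subunits that carry the flavin and iron-sulphur clusters, 5 were called higher. Ndufs7, which holds the last iron-sulphur cluster before coenzyme Q, had 334, 252 and 218 FPKM in AHR CKO CPZ, against 142, 183 and 171 FPKM in WT CPZ. No AHR CKO library entered the WT range (log2 change 0.68 ± 0.17 SE, adjusted p = 0.0215). Ndufv1, which binds NADH and the flavin, was called as well, with 117, 93.8 and 87.9 FPKM in AHR CKO CPZ, against 73.7, 84 and 77.7 FPKM in WT CPZ (log2 change 0.33 ± 0.10 SE, adjusted p = 0.0452). Its call was lost in 9 of the 12 fits that left out 1 library.

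Ndufs1, the largest core subunit and a carrier of several iron-sulphur clusters, had 43.2, 39.4 and 39.1 FPKM in AHR CKO CPZ, against 46.5, 39.7 and 45.3 FPKM in WT CPZ. The groups overlapped (log2 change -0.11 ± 0.10 SE, adjusted p = 0.45), and it was the 1 gene of complex I with a negative log2 change in this comparison. Its transcript of 2661 nt was also among the 8 longest of the 89, a point taken up below.

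Of the 31 other genes counted in complex I, 14 were called higher, Ndufa4l2 among them. Ndufa7, an accessory subunit of the matrix arm, had 273, 236 and 225 FPKM in AHR CKO CPZ, against 154, 164 and 180.4 FPKM in WT CPZ, so that its lowest AHR CKO library was well above the highest WT library (log2 change 0.55 ± 0.12 SE, adjusted p = 0.0133). Ndufb6, an accessory subunit of the membrane arm (chr4:40270591-40279421, minus strand; promoter shown above), had 141, 112 and 101 FPKM in AHR CKO CPZ, against 86.3, 73.2 and 82.9 FPKM in WT CPZ. These groups did not overlap either (log2 change 0.53 ± 0.13 SE, adjusted p = 0.0183).

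Ndufa4l2 gave the smallest p of all 89 genes, at a low level. It is a hypoxia-inducible paralog of Ndufa4, known to restrain complex I activity. It had 7.05, 6.18 and 6.38 FPKM in AHR CKO CPZ, against 4.1, 3.46 and 2.78 FPKM in WT CPZ (log2 change 0.77 ± 0.12 SE, adjusted p = 0.00387), a ratio of means of 1.90. Every AHR CKO library was at least 1.5 times the highest WT library, and the adjusted p stayed between 0.00421 and 0.0181 when any 1 library was left out. The call was lost after a correction for transcript length and GC content, described below. Its abundant paralog Ndufa4, named for complex I but known as a subunit of complex IV, had 891, 706 and 606 FPKM in AHR CKO CPZ, against 532, 553 and 566 FPKM in WT CPZ. The groups did not overlap, but the gene missed the threshold (log2 change 0.40 ± 0.13 SE, adjusted p = 0.0543).

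The values of 1 accessory subunit scattered within the groups. Ndufa12, a small subunit of the matrix arm, had 268, 126 and 79.6 FPKM in AHR CKO CPZ and 79.8, 80.5 and 241 FPKM in AHR CKO Ctrl. It had 132, 215 and 68.5 FPKM in WT CPZ and 53.2, 61.4 and 54.1 FPKM in WT Ctrl. Libraries of 3 different groups exceeded 200 FPKM while others of the same groups stayed under 85 FPKM, and the change between genotypes under cuprizone was 0.15 ± 0.51 (SE, log2). The WT Ctrl libraries were all low, and below all WT CPZ libraries.

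Complex II, succinate dehydrogenase, is the smallest complex and was split. Sdhb, its iron-sulphur subunit (chr4:140961203-140979193, plus strand), had 166, 144 and 128 FPKM in AHR CKO CPZ, against 107, 109.7 and 107 FPKM in WT CPZ. The WT libraries lay close together and below all AHR CKO libraries (log2 change 0.43 ± 0.10 SE, adjusted p = 0.0157). Sdhc, 1 of the membrane anchors (chr1:171127165-171150603, minus strand), had 131, 112 and 112 FPKM in AHR CKO CPZ, against 98.4, 91.8 and 99 FPKM in WT CPZ, again without overlap (log2 change 0.29 ± 0.087 SE, adjusted p = 0.0361).

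The other two genes of the complex did not pass. Sdha, the flavin-bearing catalytic subunit, had 159, 151 and 134 FPKM in AHR CKO CPZ, against 157, 148 and 158 FPKM in WT CPZ, with overlap (log2 change -0.058 ± 0.085 SE, adjusted p = 0.646). Sdhd, the other membrane anchor, had 88.5, 79.7 and 74 FPKM in AHR CKO CPZ, against 73.6, 69.1 and 78.5 FPKM in WT CPZ, also with overlap (log2 change 0.13 ± 0.10 SE, adjusted p = 0.356).

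In complex III, the cytochrome bc1 complex, 4 of 8 genes were called higher. Uqcr10, a small subunit, had 872, 648 and 598 FPKM in AHR CKO CPZ, against 408, 475 and 457 FPKM in WT CPZ, and was 1 of the 2 genes still called without AHR CKO CPZ 1 (log2 change 0.64 ± 0.14 SE, adjusted p = 0.0136). Uqcrq, another small subunit, had 682, 498 and 472 FPKM in AHR CKO CPZ, against 353, 413 and 384 FPKM in WT CPZ, without overlap (log2 change 0.50 ± 0.14 SE, adjusted p = 0.029). The other 2 were the core protein Uqcrc1, at 188 ± 35.2 FPKM in AHR CKO CPZ and 141 ± 6.22 FPKM in WT CPZ (SD, n = 3 each; log2 change 0.39 ± 0.12 SE, adjusted p = 0.0401), and the Rieske iron-sulphur protein Uqcrfs1 (log2 change 0.34 ± 0.11 SE, adjusted p = 0.0439). With 1 library left out, the call was lost in 8 of 12 fits for Uqcrc1 and in 9 for Uqcrfs1. Uqcrc2, the second core protein, was not called (log2 change 0.13 ± 0.10 SE, adjusted p = 0.332).

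Uqcrb, a small subunit of complex III, had the most scattered values of the complex. It had 275, 94.6 and 176 FPKM in AHR CKO CPZ, against 181, 138 and 206 FPKM in WT CPZ. The lowest and the highest of its 12 values were both in AHR CKO CPZ, and the change was -0.056 ± 0.32 (SE, log2).

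Complex IV, cytochrome c oxidase, had positive changes in all 14 of its genes (median log2 change 0.41), of which 3 passed the test. Cox5b, which forms part of the nuclear-encoded shell of the enzyme, had 1141, 835 and 711 FPKM in AHR CKO CPZ, against 535, 656 and 571 FPKM in WT CPZ, without overlap (log2 change 0.59 ± 0.16 SE, adjusted p = 0.0253). Cox7b and Cox6b1, small subunits of the same shell, rose too (log2 change 0.40 ± 0.11 SE, adjusted p = 0.0297 for Cox7b; log2 change 0.41 ± 0.12 SE, adjusted p = 0.0354 for Cox6b1).

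Of the isoform sets of complex IV, Cox6b1 was the 1 gene called, and the others had positive changes that missed the threshold. Cox4i1 had 1695, 1358 and 1203 FPKM in AHR CKO CPZ, against 913, 1186 and 1014 FPKM in WT CPZ (log2 change 0.45 ± 0.15 SE, adjusted p = 0.0579). Its low-oxygen isoform Cox4i2 had 5.52, 3.28 and 4.38 FPKM in AHR CKO CPZ, against 1.88, 3.19 and 2.58 FPKM in WT CPZ (log2 change 0.60 ± 0.23 SE, adjusted p = 0.0799); neither gene's groups overlapped. For the subunit 6a pair, the ubiquitous Cox6a1 had a log2 change of 0.30 (adjusted p = 0.218) and the muscle form Cox6a2 by 0.49 (adjusted p = 0.0816). The testis form Cox6b2 had a log2 change of 0.37 (adjusted p = 0.29). Cox7a1 had the largest log2 change of the 89, 0.82 ± 0.37 (SE), but its values of 14.2, 7.05 and 13.8 FPKM in AHR CKO CPZ, against 3.32, 7.09 and 8.42 FPKM in WT CPZ, overlapped (adjusted p = 0.131), while its ubiquitous partner Cox7a2 had a log2 change of 0.41 (adjusted p = 0.0578). Cox5a had a log2 change of 0.41 (adjusted p = 0.0734) and Cox8a by 0.29 (adjusted p = 0.179). Cox8b was not analysed here.

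Complex V, the ATP synthase, also had positive changes in all 15 of its genes, with the median at 0.34 and 2 calls. Atp5g3, 1 of the 3 genes for the same c-ring protein of the proton channel, had 553, 420.2 and 353 FPKM in AHR CKO CPZ, against 302, 287 and 307 FPKM in WT CPZ, without overlap (log2 change 0.54 ± 0.14 SE, adjusted p = 0.0239). The other c-ring genes were not called: Atp5g1 had a log2 change of 0.34 (adjusted p = 0.213) and Atp5g2 by 0.28 (adjusted p = 0.105). Atp5d, the delta subunit of the rotating stalk, had 430, 330 and 314 FPKM in AHR CKO CPZ, against 222, 276 and 240.2 FPKM in WT CPZ, without overlap (log2 change 0.53 ± 0.14 SE, adjusted p = 0.0243). The catalytic subunit Atp5b had 819, 721 and 631 FPKM in AHR CKO CPZ, against 615, 624 and 678 FPKM in WT CPZ. Its groups overlapped (log2 change 0.17 ± 0.12 SE, adjusted p = 0.309).

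Among the 10 assembly factors and other rows, 4 were called higher: Ndufaf3, Ndufaf2, Atp5sl and Atp5s. Ndufaf3, an assembly factor of complex I, had 36.9, 36.1 and 32.3 FPKM in AHR CKO CPZ, against 22.3, 25.5 and 21.6 FPKM in WT CPZ, without overlap (log2 change 0.58 ± 0.14 SE, adjusted p = 0.017). Ndufaf2, which joins a late step of the assembly of complex I, rose as well (log2 change 0.45 ± 0.13 SE, adjusted p = 0.0339), and so did Atp5sl, now named Dmac2 and known as a complex I assembly factor (log2 change 0.41 ± 0.11 SE, adjusted p = 0.0281). Ndufaf4, also an assembly factor of complex I, was not called (log2 change -0.11 ± 0.075 SE, adjusted p = 0.286), but its values of 9.08, 8.55 and 8.7 FPKM in AHR CKO CPZ all lay just below the 9.43, 9.33 and 9.95 FPKM of WT CPZ. Cox7a2l, which helps join complexes III and IV into supercomplexes, had a log2 change of 0.23 (adjusted p = 0.126).

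**Figure D2:**
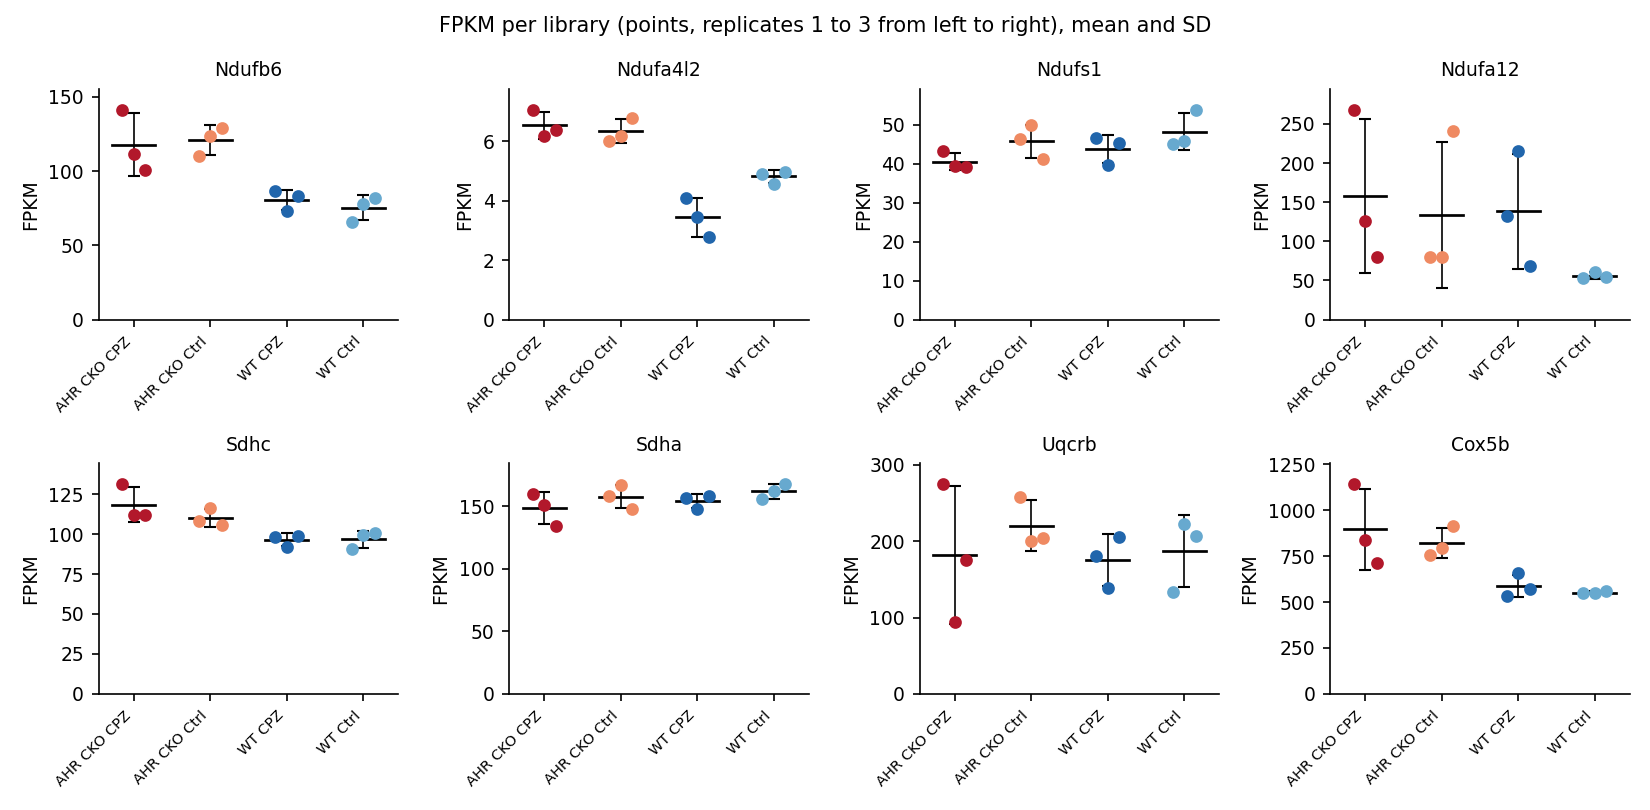
FPKM of 8 genes in the 12 libraries, 1 point per library with replicates 1 to 3 from left to right, and bars for the group mean and SD (n = 3); the vertical axes start at 0. Ndufb6, Ndufa4l2, Sdhc and Cox5b have all AHR CKO points above all WT points, Ndufs1 and Sdha have overlapping groups, and Ndufa12 and Uqcrb vary between libraries of the same group.

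Without cuprizone, the genotype difference of the respiratory chain had nearly the same size and few calls. In control mice 4 of the 89 genes were higher in AHR CKO than in WT and none was lower (limma, adjusted p under 0.05), whereas 1.42% of all tested genes were called higher and 4.76% lower. At an unadjusted p under 0.05, 61 of the 89 were higher and 0 lower. The log2 change was positive in 84 of the 89 with a median of 0.38, against a median of -0.029 over all tested genes. In 68 of the 89 (76.4%) every AHR CKO Ctrl library was above every WT Ctrl library, as in 13.5% of all tested genes, and again Ndufaf4 was the 1 gene below.

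The 4 calls were all among the 34 made under cuprizone. Ndufb6 had 109.9, 124 and 129 FPKM in AHR CKO Ctrl, against 66, 77.7 and 82.1 FPKM in WT Ctrl. The gap between the groups exceeded the range within each (log2 change 0.68 ± 0.13 SE, adjusted p = 0.028). Ndufa13, an accessory subunit also linked to cell death, had 85.4, 94.5 and 110.2 FPKM in AHR CKO Ctrl, against 59.6, 70.0 and 58.1 FPKM in WT Ctrl (log2 change 0.62 ± 0.15 SE, adjusted p = 0.0373). Ndufa11, a membrane-arm subunit, had 22.5, 24.5 and 26.4 FPKM in AHR CKO Ctrl, against 15.6, 16 and 16.3 FPKM in WT Ctrl (log2 change 0.58 ± 0.14 SE, adjusted p = 0.038). Neither gene's groups overlapped. Uqcrq had 408, 462 and 523 FPKM in AHR CKO Ctrl, against 316, 307 and 332 FPKM in WT Ctrl, also without overlap (log2 change 0.54 ± 0.14 SE, adjusted p = 0.0472).

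In the classes without a call in control mice, the gene of smallest p missed the threshold narrowly in each of complexes II, IV and V. Sdhb had 120, 138 and 142 FPKM in AHR CKO Ctrl, against 100.1, 107 and 105 FPKM in WT Ctrl (log2 change 0.35 ± 0.10 SE, adjusted p = 0.0555). Cox5b had 757, 794 and 915 FPKM in AHR CKO Ctrl, against 547, 547 and 559 FPKM in WT Ctrl (log2 change 0.57 ± 0.16 SE, adjusted p = 0.0523). None of these 6 AHR CKO values entered the WT range. Atp5e, the epsilon subunit of ATP synthase, had 489.7, 614 and 712 FPKM in AHR CKO Ctrl, against 352, 438 and 416 FPKM in WT Ctrl, likewise without overlap (log2 change 0.58 ± 0.16 SE, adjusted p = 0.0531). Ndufs1 had 46.2, 49.8 and 41.3 FPKM in AHR CKO Ctrl, against 45.1, 45.8 and 53.8 FPKM in WT Ctrl, with overlap (log2 change -0.073 ± 0.10 SE, adjusted p = 0.669), and Sdha overlapped as it did under cuprizone (log2 change -0.04 ± 0.085 SE, adjusted p = 0.798).

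The number of calls in control mice moved with single libraries, including libraries outside the comparison, because all 12 shared 1 estimate of the spread. Without AHR CKO CPZ 1 there were 39 genes called higher, the 4 included, and without AHR CKO CPZ 3 there were 15. Leaving out AHR CKO CPZ 2 or WT CPZ 3 left 1, leaving out AHR CKO Ctrl 1 gave 8, and leaving out WT Ctrl 3 left 2. Without AHR CKO Ctrl 2, AHR CKO Ctrl 3, WT Ctrl 1 or WT Ctrl 2 there were 0, in fits that called only 3 to 9 of all tested genes higher and 1 to 3 lower. Without AHR CKO CPZ 1 all tested genes had 399 higher and 1029 lower. The median log2 change ran from 0.31 to 0.45 over the 12 fits.

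The genotype comparisons of the 2 treatments share no library. In them, 83 of the 89 genes (93.3%) had a positive change in both, against 35.1% of all tested genes. Across the 89 genes the changes had a Pearson r of 0.63, close to the 0.61 across all tested genes; the genes of 1 library share its depth and composition, so this is a description. The interaction of genotype and cuprizone, which asks whether the genotype difference changed with treatment, called none of the 89 higher and none lower, against 0.0145% and 0.0218% of all tested genes. At an unadjusted p under 0.05, limma had 2 of the 89 higher, Ndufa4l2 and Atp5s, and 0 lower. The smallest adjusted p was 0.399, for Ndufa4l2, with an interaction of 0.44 ± 0.16 (SE, log2).

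**Figure D3:**
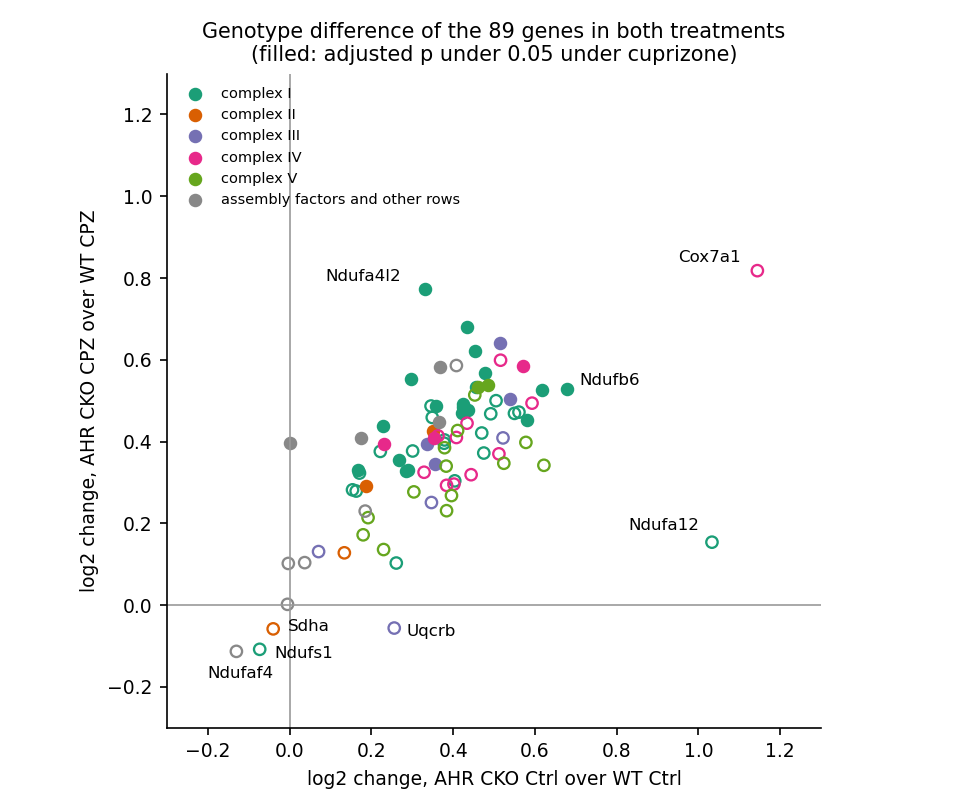
Log2 change of each of the 89 genes between AHR CKO and WT in control mice (horizontal axis) and under cuprizone (vertical axis), coloured by complex; filled points passed an adjusted p of 0.05 under cuprizone. Most points lie in the upper right, with 83 of 89 positive on both axes, and Ndufs1, Sdha and Ndufaf4 lie below 0 on both.

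The respiratory genes have short transcripts, and in these libraries short transcripts in general had higher values in AHR CKO. The median transcript length was 838 nt for the 89 genes, against 2896 nt for all tested genes with a length; 53 of the 89 were under 1000 nt and 8 reached 2000 nt. Under cuprizone, the median log2 change between AHR CKO and WT over all tested genes was 0.32 for transcripts under 600 nt, 0.33 from 600 to under 800 nt, 0.32 to under 1200 nt, 0.20 to under 2000 nt, 0.056 to under 3000 nt, -0.083 to under 5000 nt and -0.28 at 5000 nt and over. In control mice the same medians declined with each class, with 0.28 under 600 nt, 0.23 to under 800 nt, 0.18 to under 1200 nt, 0.12 to under 2000 nt, 0.007 to under 3000 nt, -0.088 to under 5000 nt and -0.24 at 5000 nt and over. The respiratory genes lay above the medians of their length classes, with medians under cuprizone of 0.41 under 600 nt, 0.45 from 600 to under 800 nt, 0.46 to under 1200 nt, 0.33 to under 2000 nt, 0.21 to under 3000 nt (5 genes) and 0.10 to under 5000 nt (3 genes). In control mice their medians were 0.45, 0.41, 0.41, 0.21, 0.19 and 0.19 over the same classes. Under cuprizone, 15.3%, 23.1%, 29.9% and 19.5% of all tested genes were called higher in the successive classes below 2000 nt. The shares of the respiratory genes there were 20.8%, 31.6%, 61.1% and 50%.

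The shift could be read library by library. Set against the mean of all libraries, the 968 tested genes under 1000 nt had a median of 0.42, 0.19 and 0.11 (log2) in AHR CKO CPZ and of -0.040, 0.029 and 0.15 in AHR CKO Ctrl. In WT CPZ it was -0.13, -0.037 and -0.090, and in WT Ctrl it was -0.23, -0.12 and -0.22. The 89 genes had 0.54, 0.14 and 0.010 in AHR CKO CPZ, 0.012, 0.18 and 0.28 in AHR CKO Ctrl, -0.24, -0.12 and -0.14 in WT CPZ and -0.28, -0.18 and -0.15 in WT Ctrl. AHR CKO CPZ 1 was thus the highest library on both measures and WT Ctrl 1 the lowest. Across the 89 genes, the change between genotypes had a Spearman rho with length of -0.37 under cuprizone and -0.54 in control mice, and across the 13642 tested genes with a length rho was -0.55 and -0.49.

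**Figure D4:**
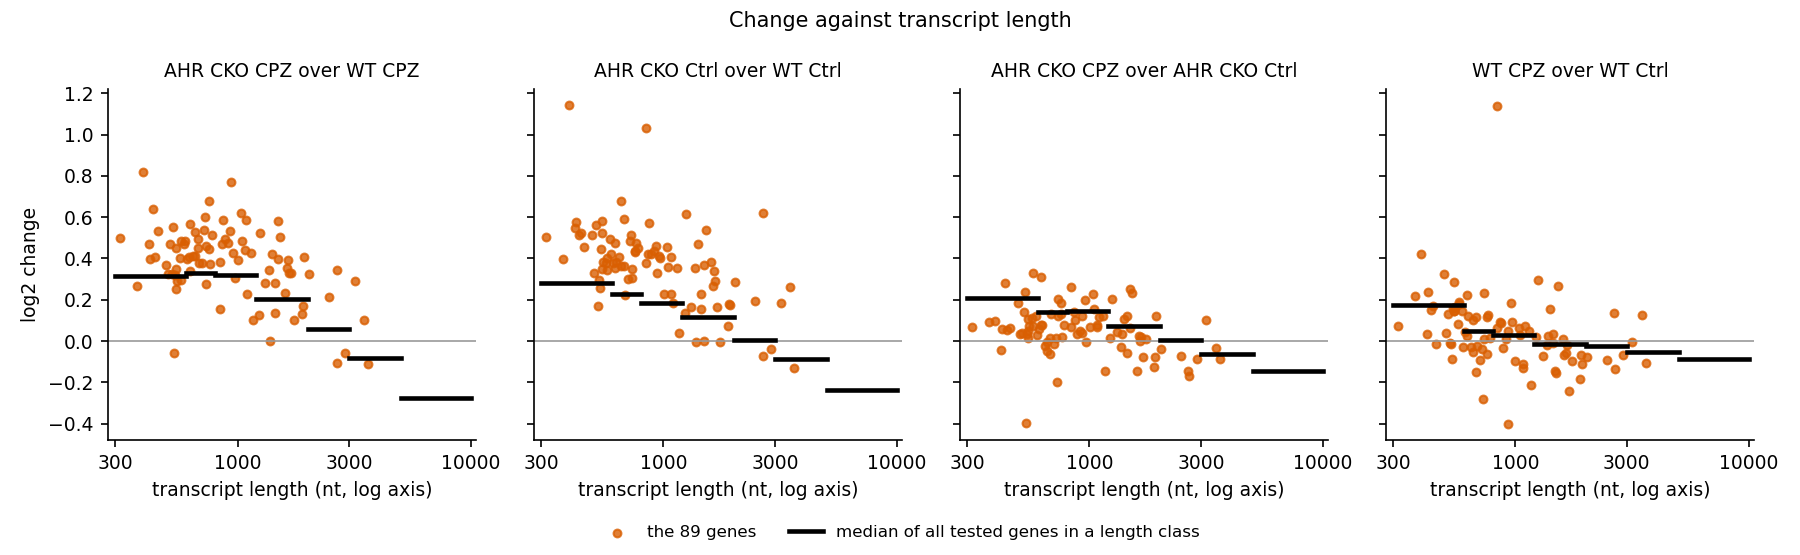
Log2 change against transcript length (log axis) in the 4 comparisons of 2 groups: points are the 89 genes and black bars the medians of all tested genes in classes of length. In both comparisons of AHR CKO with WT the bars from 1200 nt on lie lower with each class, under cuprizone down to -0.28 at 5000 nt and over, and most respiratory genes sit at lengths where the bars are above 0.

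Removing from each library a smooth trend with transcript length and with GC content took most of the calls away. Calls over all genes fell too. Under cuprizone they went from 1257 higher and 1490 lower to 301 and 559 of the 13642 genes with a length. In control mice they went from 196 higher and 655 lower to 18 and 37. In proportion, the 89 genes lost more of their higher calls than all genes under cuprizone (34 to 1) and fewer in control mice (4 to 1). Under cuprizone 1 of the 89 genes was higher in AHR CKO, Sdhc, with a log2 change of 0.35 (limma, adjusted p = 0.0369); 0 were lower, the median change was 0.14 and 77 changes were positive. In control mice 1 gene was called, Ndufb6, with 0.54 (adjusted p = 0.0487); the median change was 0.19 and 85 changes were positive. The mean level of the 89 genes then overlapped between the cuprizone groups and still separated the control groups: it was 7.21, 6.97 and 6.88 in AHR CKO CPZ and 7.10, 7.20 and 7.23 in AHR CKO Ctrl, against 6.83, 6.91 and 6.89 in WT CPZ and 6.91, 6.93 and 7.04 in WT Ctrl. After the same correction all tested genes had medians of 0.009 under cuprizone and 0.003 in control mice. When AHR CKO CPZ 1 was left out as well, 0 of the 89 were called under cuprizone, with a median of 0.048, and 2 in control mice, with a median of 0.19. How much of the genotype difference of the respiratory genes belongs to their transcript length and how much to the genotype cannot be told apart in these groups.

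The longest members were few. Of the 8 genes of 2000 nt or more, Ndufa10 and Sdhc were called higher under cuprizone, and 3 had every AHR CKO CPZ library above every WT CPZ library; the median change of the 8 was 0.16, against 0.41 for the 81 shorter genes. Of all tested genes, 7.27% from 2000 to under 3000 nt and 2.91% from 3000 to under 5000 nt were called higher under cuprizone. In control mice 5 of the 8 had every AHR CKO Ctrl library above every WT Ctrl library, and the median was 0.19, against 0.38. Sdhc, at 3171 nt, had 108, 117 and 106 FPKM in AHR CKO Ctrl, against 90.4, 99.2 and 100.4 FPKM in WT Ctrl. All AHR CKO values were above all WT values here too, although the difference was not called (log2 change 0.19 ± 0.087 SE, adjusted p = 0.188).

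**Figure D5:**
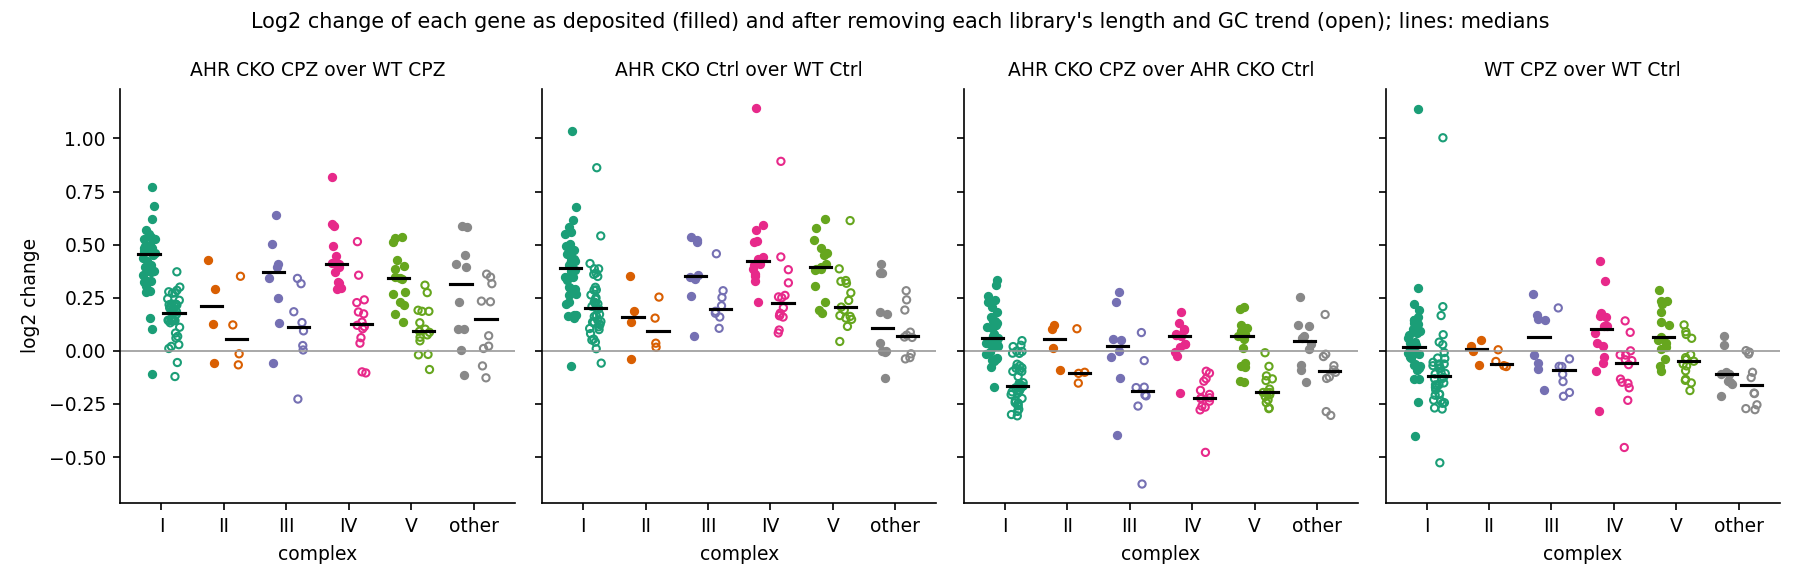
Log2 change of each gene by complex in the 4 comparisons of 2 groups, from the deposited values (filled) and after the trend on length and GC content was removed from each library (open), with lines for the medians. The AHR CKO changes move towards 0 but stay mostly positive (median over all 89 genes 0.14 under cuprizone and 0.19 in control mice), and the medians of the cuprizone changes move below 0 (over all 89 genes to -0.17 in AHR CKO and -0.082 in WT).

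Set against the genotype, cuprizone gave few calls among the respiratory genes. In AHR CKO mice none of the 89 genes was called higher or lower after cuprizone, against 7.22% and 2.98% of all tested genes (993 and 410 genes; 763 and 530 after rescaling to a common total, 916 and 608 under quantile normalization). At an unadjusted p under 0.05 limma also had 0 in each direction. The median log2 change was 0.06, and -0.098 without AHR CKO CPZ 1. Its smallest adjusted p, 0.215, belonged to Atp5s, with 12.5, 10.7 and 12 FPKM in AHR CKO CPZ and 9.74, 8.24 and 11.2 FPKM in AHR CKO Ctrl. These groups overlapped (0.25 ± 0.12 SE, log2). In each complex the gene of smallest p stayed far from the threshold: Ndufa2 with 0.33 (adjusted p = 0.26), Sdhb with 0.12 (adjusted p = 0.497), Uqcr10 with 0.28 (adjusted p = 0.268), Cox4i2 with -0.20 (adjusted p = 0.642) and Atp5g2 with 0.20 (adjusted p = 0.311).

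In WT mice 0 of the 89 genes rose after cuprizone and 1 fell, against 9.08% and 7.81% of all tested genes (limma; at an unadjusted p under 0.05, 1 and 2). The gene that fell was Ndufa4l2, which had 4.1, 3.46 and 2.78 FPKM in WT CPZ, against 4.92, 4.58 and 4.98 FPKM in WT Ctrl. Every WT CPZ library was below every WT Ctrl library (log2 change -0.40 ± 0.12 SE, adjusted p = 0.0315). The call was lost without any 1 of WT Ctrl 1, 2 or 3, WT CPZ 2 or WT CPZ 3 (adjusted p up to 0.125), and was kept after the length and GC correction (log2 change -0.53, adjusted p = 0.00888). In AHR CKO mice the same gene had 7.05, 6.18 and 6.38 FPKM in AHR CKO CPZ and 6.02, 6.19 and 6.8 FPKM in AHR CKO Ctrl, with overlap (log2 change 0.039 ± 0.12 SE, adjusted p = 0.873). The interaction did not pass the threshold, as given above, so the effects of cuprizone in the genotypes were not shown to differ.

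The median log2 change after cuprizone in WT was 0.026, with -0.011 without WT Ctrl 1 and 0.06 without WT CPZ 1 as the ends of the range over single libraries left out. In 10 of the 89 genes every WT CPZ library was above every WT Ctrl library and in 4 every one was below (11.2% and 4.49%, against 15.8% and 18.9% of all tested genes). By complex the genes of smallest p, other than Ndufa4l2, were Sdha with -0.069 (adjusted p = 0.643), Uqcrc2 with -0.19 (adjusted p = 0.219), Cox6b2 with 0.33 (adjusted p = 0.418) and Atp5g2 with 0.23 (adjusted p = 0.205). The assembly factor of smallest p was Ndufaf5, with -0.21 (adjusted p = 0.183). After the length and GC correction the median change after cuprizone became -0.17 in AHR CKO and -0.082 in WT. When AHR CKO CPZ 1 was left out as well, 10 of the 89 genes were called lower after cuprizone in AHR CKO, with a median of -0.25, and 2 in WT; of all 13642 genes, 457 were called lower in AHR CKO and 1228 in WT in that fit.

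The cell types of the tissue did move in the same libraries. All 8 markers of mature oligodendrocytes fell after cuprizone in both genotypes: their summed level was 3888 to 4873 FPKM in AHR CKO CPZ, against 9316 to 9941 FPKM in AHR CKO Ctrl, and 2924 to 3501 FPKM in WT CPZ, against 9657 to 17610 FPKM in WT Ctrl. Of 8 microglial markers 5 rose after cuprizone in each genotype, to 614 to 957 FPKM in AHR CKO CPZ, against 189 to 217 FPKM in AHR CKO Ctrl, and to 902 to 1308 FPKM in WT CPZ, against 214 to 252 FPKM in WT Ctrl. The astrocyte list had 4 of 8 markers up in each genotype and, in WT, 1 down. Across all tested genes 7.22% were called higher and 2.98% lower in AHR CKO, and 9.08% and 7.81% in WT. The respiratory genes in the same comparisons had median log2 changes of 0.06 in AHR CKO and 0.026 in WT, against -1.15 and -2.33 for the oligodendrocyte list and 1.64 and 1.73 for the microglial list.

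Between genotypes, the oligodendrocyte list had a median log2 change of 0.50 under cuprizone and -0.47 in control mice, and the microglial list -0.43 and -0.055, while the respiratory genes had 0.40 and 0.38. Under cuprizone 2 of 8 oligodendrocyte markers, Mag and Opalin, were higher in AHR CKO, 1 of 8 microglial markers, Csf1r, was lower, 1 of 8 astrocyte markers was higher and 1 lower, 1 of 5 endothelial markers was lower, and 2 of 6 pericyte and smooth muscle markers were higher and 1 lower. In control mice 1 astrocyte marker was lower and no other marker was called. Across all tested genes 9.14% were called higher and 10.8% lower under cuprizone, and 1.42% and 4.76% in control mice. Counts of 1 or 2 in lists this short cannot be set apart from these shares. The microglial marker Cx3cr1 was not called, but its groups did not overlap between genotypes in either treatment. It had 1.16 to 29.6 FPKM in AHR CKO CPZ, against 49.4 to 69.35 FPKM in WT CPZ. In AHR CKO Ctrl it had 0.80 to 9.6 FPKM, against 22.6 to 24.9 FPKM in WT Ctrl. None of the 8 neuronal markers was called in either genotype comparison (limma; at an unadjusted p under 0.05, 0 under cuprizone and 1 higher in control mice). Their summed level was 2020 to 2328 FPKM in AHR CKO CPZ and 2096 to 2784 FPKM in AHR CKO Ctrl, against 1726 to 2342 FPKM in WT CPZ and 2297 to 2650 FPKM in WT Ctrl. No marker of any of these lists was at 0 in a library. The part of these cell types in the genotype difference was not tested.

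The 4 choroid plexus markers (Ttr, Folr1, Kl and Aqp1) differed widely between libraries. Their summed level was 3713, 1001 and 2811 FPKM in AHR CKO CPZ and 1865, 3545 and 411 FPKM in AHR CKO Ctrl, against 2954, 55.7 and 974 FPKM in WT CPZ and 41.7, 149 and 85.6 FPKM in WT Ctrl. None was called between genotypes (limma; at an unadjusted p under 0.05, 4 of 4 higher in control mice and 0 under cuprizone). All AHR CKO Ctrl libraries were above all WT Ctrl libraries, whereas the cuprizone groups overlapped. Within groups their order matched that of the respiratory genes in some libraries and not in others. AHR CKO CPZ 1 had the most of these markers and the highest mean level of the 89 genes among the AHR CKO CPZ libraries, and WT Ctrl 1 the least markers and the lowest mean level among the WT Ctrl libraries. AHR CKO Ctrl 3 had the least markers and the highest mean level among the AHR CKO Ctrl libraries, and WT CPZ 1 the most markers and the lowest mean level among the WT CPZ libraries. The part of these markers in the genotype difference was not tested.

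Other mitochondrial genes were taken from lists of the pathway. Under cuprizone, 6 of 38 assembly factors outside the naming rule were higher in AHR CKO and 1 was lower, with a median log2 change of 0.17, and 0.04 after the length and GC correction. The background over all tested genes was 9.14% higher, and 19.5% among transcripts from 1200 to under 2000 nt. Sdhaf1, which helps insert the iron-sulphur clusters of complex II, rose to between 27.5 and 47.5 FPKM in AHR CKO CPZ, against 14.1 to 26.5 FPKM in WT CPZ (log2 change 0.92 ± 0.22 SE, adjusted p = 0.017). Cox17, the copper chaperone of complex IV, rose to 235 ± 39.7 FPKM in AHR CKO CPZ, against 154 ± 8.42 FPKM in WT CPZ (SD, n = 3 each; log2 change 0.59 ± 0.13 SE, adjusted p = 0.0121). Both were called after the length and GC correction as well (adjusted p = 0.0435 for Sdhaf1 and 0.0369 for Cox17). Surf1 and Coa3, which act in the assembly of complex IV, were higher before the correction only (adjusted p = 0.023 and 0.0124).

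Of 17 genes for import through the outer and inner membranes 8 were higher in AHR CKO under cuprizone (median log2 change 0.32, and 0.16 after the correction), of 15 electron carriers and coenzyme Q synthesis genes 4 (0.24, and 0.087 after it), of 10 carriers and uncouplers 4 (0.25 and 0.15) and of 17 genes of the tricarboxylic acid cycle 3 (0.12 and 0.12). None of these lists had a lower call. Their calls are read against the same background of 9.14% over all tested genes. The import, coenzyme Q and carrier lists have median lengths from 1200 to under 2000 nt, where the share was 19.5%. The cycle genes have a median length of 2544 nt, and from 2000 to under 3000 nt the share was 7.27%. The 6 of 38 assembly factors did not exceed the 19.5% of their length class. Coq7, an enzyme of coenzyme Q synthesis, had 53.7 ± 14.1 FPKM in AHR CKO CPZ and 31.1 ± 0.89 FPKM in WT CPZ (SD, n = 3 each; log2 change 0.74 ± 0.16 SE, adjusted p = 0.0129), and was also called in control mice (log2 change 0.68 ± 0.16 SE, adjusted p = 0.038). Mdh2, the malate dehydrogenase of the cycle, rose to 294 ± 48.7 FPKM in AHR CKO CPZ, against 205 ± 12.5 FPKM in WT CPZ (SD, n = 3 each; log2 change 0.51 ± 0.12 SE, adjusted p = 0.0164). Cycs, cytochrome c itself, was not called (log2 change 0.26 ± 0.11 SE, adjusted p = 0.109).

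Among 14 regulators of mitochondrial biogenesis, none was higher and 1 was lower in AHR CKO under cuprizone (limma; at an unadjusted p under 0.05, 0 and 3), with a median log2 change of -0.035. The 1 was Gabpa, the DNA-binding part of GABP, at 8.41 ± 1.66 FPKM in AHR CKO CPZ and 11.3 ± 0.134 FPKM in WT CPZ (SD, n = 3 each; log2 change -0.41 ± 0.12 SE, adjusted p = 0.0368); after the length and GC correction it was not called (adjusted p = 0.357). Ppargc1a, the PGC-1 alpha coactivator, had a log2 change of -0.22 (adjusted p = 0.2), Nrf1 by -0.041 (adjusted p = 0.824) and the mitochondrial transcription factor Tfam by 0.13 (adjusted p = 0.328). These transcripts are long, with a median of 3706 nt. Under cuprizone 9.14% of all tested genes were called higher and 10.8% lower, and 2.91% and 11.2% from 3000 to under 5000 nt. The 1 of 14 called lower did not exceed these shares.

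After cuprizone, a few mitochondrial genes outside the respiratory chain were called in both genotypes. Ucp2, an uncoupling protein known from immune cells, rose to 25.9 ± 6.86 FPKM in AHR CKO CPZ, against 9.48 ± 2.33 FPKM in AHR CKO Ctrl (SD, n = 3 each; log2 change 1.35 ± 0.21 SE, adjusted p = 0.0012), and to 29.3 ± 7.34 FPKM in WT CPZ, against 6.01 ± 0.559 FPKM in WT Ctrl (log2 change 2.09 ± 0.21 SE, adjusted p = 3.19e-05). Idh2 and Suclg2 of the tricarboxylic acid cycle rose in both genotypes, Idh2 by 0.46 in AHR CKO and 0.49 in WT and Suclg2 by 0.45 in AHR CKO and 0.50 in WT (log2; adjusted p = 0.0169, 0.00741, 0.0318 and 0.0115 in that order). Lyrm7, an assembly factor of complex III, fell in both, with log2 changes of -0.37 in AHR CKO and -0.35 in WT (adjusted p = 0.0466 and 0.0404). In WT, 2 of 38 assembly factors outside the naming rule were lower in all. Only in WT, 2 of 10 carriers and uncouplers were lower and 1 of 15 electron carrier and coenzyme Q genes was higher. The shares of all tested genes called higher and lower were 7.22% and 2.98% in AHR CKO and 9.08% and 7.81% in WT.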

How the data were processed

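Per the labels' protocols, total RNA (Qiagen RNeasy) went into SMARTER mRNA-Seq libraries. The authors deposited 1 table of FPKM values for 12 samples, per the file headers, and GRCm38 (mm10) is named in the submitters' processing notes. The sources used here name no aligner, quantifier or annotation. FPKM divides by length alike in every library, so a length trend of 1 library stays in its values.

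Genes with at least 1 FPKM in at least 3 libraries were tested with limma 3.58.1 in R 4.3.3 (4 group means, eBayes with trend) on log2(FPKM + 1), computed here from the deposited FPKM; log2 changes understate those of low genes. P-values are two-sided and Benjamini-Hochberg adjusted over all 13759 genes; the threshold was 0.05. Members and lists were chosen with earlier results of these data known. Named are, per comparison and class, up to 3 called genes of smallest p in each direction, or the 1 of smallest p, plus core subunits, isoform sets and up to 3 genes per list; other genes named were chosen after their values were seen. Lengths are medians of a gene's coding transcripts with a RefSeq match in GENCODE M21 (13642 genes, 99.15%). The length and GC correction removes natural splines of 5 degrees of freedom. The alternatives were a pseudocount of 0.1, other filters and scalings, this correction, only the groups compared, the replicate number as a block, and leaving out each library. The fit was tested on simulated data.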

Additional observations from a re-analysis of the deposited data

How the results depend on the processing

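In AHR CKO against WT under cuprizone, the 34 genes called higher became 18 after rescaling to a common total, which moved the median change of all tested genes to -0.11 and that of the 89 genes to 0.27, 21 under quantile normalization (median of the 89 genes 0.21), 1 with the length and GC correction (0.14) and 3 with only the groups compared. Leaving out 1 library gave 2 to 53 calls and medians of 0.24 to 0.51. In AHR CKO against WT in control mice, the 4 calls became 7 with a mean FPKM of at least 5, 8 with a common total, 8 under quantile normalization, 1 with the length and GC correction (median 0.19) and 2 with only the groups compared, and 0 to 39 with 1 library left out. After cuprizone in AHR CKO the median became -0.17 with the length and GC correction and -0.098 to 0.16 with 1 library left out. After cuprizone in WT, 1 gene was called higher under quantile normalization, and the 1 called lower became 0 with only the groups compared and 0 or 1 with 1 library left out. The causes were not tested.

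With the replicate number as a replicate block, 11 of the 34 genes stayed called under cuprizone and 0 in control mice, and 0 fell after cuprizone in WT; combined with the length and GC correction, the replicate block left 0 and 0 calls in the genotype comparisons, with medians of 0.14 and 0.19, and -0.17 after cuprizone in AHR CKO. Deviations from the group means correlated from -0.34 to 0.25 between libraries of the same number and from -0.40 to 0.44 between libraries of different numbers. With 3 libraries per group, this cannot tell whether the numbers pair the libraries.

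An alternative chosen after seeing the data joined the length and GC correction with the omission of AHR CKO CPZ 1. It called 0 genes under cuprizone (median 0.048) and 2 in control mice (0.19), 10 lower after cuprizone in AHR CKO (-0.25) and 2 lower after cuprizone in WT, and gave an interaction median of -0.14; the change of Ndufv1 under cuprizone turned to -0.008. Over the named genes and alternatives, 2383 values kept their side of the threshold, 219 lost it, 38 gained it and 1 called value changed sign; of the 2383, 148 passed in neither fit and had another sign. FPKM without counts leave the depth unknown, and 3 libraries per group limit each test.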

Other observations

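Other large families of mostly short transcripts were read from the same fit after the respiratory genes had been seen. The 81 cytosolic ribosomal protein genes (median length 791 nt) had a median log2 change between AHR CKO and WT of 0.24 under cuprizone, with 3 higher and 1 lower, and of 0.21 in control mice, with 1 higher. The 77 mitochondrial ribosomal protein genes (1226 nt) had 0.26 under cuprizone, with 25 higher and 1 lower, and 0.19 in control mice, with 5 higher. The 37 proteasome subunits (1512 nt) had 0.27 under cuprizone, with 17 higher and 2 lower, and 0.15 in control mice, with 1 higher. Across all tested genes 9.14% were called higher under cuprizone and 1.42% in control mice. From 600 to under 800 nt these shares were 23.1% and 5.47%, and from 1200 to under 2000 nt 19.5% and 2.97%. Under cuprizone the cytosolic ribosomal genes lay below these shares and the mitochondrial ribosomal and proteasome genes above them. With the length and GC correction the medians under cuprizone became -0.019, 0.093 and 0.083 for cytosolic ribosomal, mitochondrial ribosomal and proteasome genes, and in control mice 0.049, 0.098 and 0.071.

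After cuprizone some cytosolic ribosomal genes were called. The share of all tested genes called higher was 7.22% in AHR CKO and 9.08% in WT, and from 600 to under 800 nt it was 9.73% and 10.6%. With the length and GC correction 891 and 1297 of 13642 genes were called higher. In AHR CKO 22 of the 81 rose (median 0.37) and in WT 23 rose (median 0.33), with none lower; with the correction 2 in AHR CKO and 19 in WT were still higher, and the medians were 0.15 and 0.19. The respiratory genes had medians of 0.06 in AHR CKO and 0.026 in WT in the same libraries; the difference between the families was not tested.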
